A study of Rattus norvegicus with 10 samples.

Results

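The immediate early transcription factors Klf4, Klf2, Klf6, Fos, Fosl1, Egr1, Jun, Junb, Atf3 and Myc were followed over rat cells that carried different forms of the human receptor BMPR2. Members were all probe sets whose platform annotation names only 1 gene, that gene being 1 of these 10, which gave 19 of the 31099 probe sets on the array and 10 of the 14218 genes so named. Of these, 17 probe sets of 9 genes passed the filter on dim probe sets, log2 4.82 on at least 2 of 10 arrays. The Atf3 probe set and 1 of 5 Klf2 probe sets did not pass and were not tested.

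All groups were cells labelled A7r5, a smooth muscle line from embryonic rat aorta, kept in normoxia at about 50% confluence in DMEM with 10% serum. The ED mutant group carried BMPR2 with T354G in the extracellular domain, the CD mutant group BMPR2 with 2579-2580delT in the cytoplasmic domain, and the KD mutant group BMPR2 with C994T in the kinase domain. They were set against cells with wild-type BMPR2 and cells labelled as carrying an empty vector. The labels call the 4 BMPR2 groups stably transfected throughout, but they disagree on the empty vector group: its titles and source names call the cells native, while the transfection label and description give a stably transfected empty vector. Whether that group went through transfection is therefore not settled, and it is called empty vector here. Each group had 2 arrays, 10 in all, and the labels do not say whether the 2 came from separate cultures or from more than 1 clone. The p-values therefore rest on the difference between arrays of a group, which could be technical alone. BMPR2 is a serine/threonine kinase receptor for bone morphogenetic proteins, and the study asked how classes of its mutation affect gene expression in vascular smooth muscle cells.

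Immediate early genes are switched on within minutes of growth factors, serum or stress, without new protein synthesis. Serum response factor (SRF) with its ETS partners, and CREB at cyclic AMP response elements, carry the signal of ERK, p38 and protein kinase A to their promoters, and the mRNAs are short-lived. In smooth muscle, KLF4 is known as a repressor of contractile genes, while FOS and JUN proteins pair into AP-1 and MYC drives growth genes.

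Promoter sequence shows which of these inputs have a recognisable element near the start of a member. Windows of 250 bases before the gene start came from RefSeq (rat assembly GRCr8), whose table held 5 of the 10 genes, and 4 are shown. The entry for Klf4 was not used, and Fos, Jun, Klf2, Atf3 and Myc are named only. Capitals mark matches on either strand to the CArG box bound by SRF, to the CRE half-site TGACG, or to the TATA box, spelled TATAAA. The AP-1 site TGANTCA was also searched and had no match in the 4 windows. No matches of different motifs overlapped.
Egr1, chr18:26736828-26737077, plus strand: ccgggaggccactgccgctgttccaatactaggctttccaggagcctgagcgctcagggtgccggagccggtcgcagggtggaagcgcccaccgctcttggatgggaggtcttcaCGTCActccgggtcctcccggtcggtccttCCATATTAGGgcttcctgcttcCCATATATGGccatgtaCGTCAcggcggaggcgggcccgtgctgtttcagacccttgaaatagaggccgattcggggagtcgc
Klf6, chr17:69458479-69458728, minus strand: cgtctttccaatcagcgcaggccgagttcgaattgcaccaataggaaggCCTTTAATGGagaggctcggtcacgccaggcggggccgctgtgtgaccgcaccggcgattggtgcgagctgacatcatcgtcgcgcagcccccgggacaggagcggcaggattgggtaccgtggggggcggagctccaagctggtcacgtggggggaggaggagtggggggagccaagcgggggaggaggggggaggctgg
Fosl1, chr1:212183635-212183884, plus strand: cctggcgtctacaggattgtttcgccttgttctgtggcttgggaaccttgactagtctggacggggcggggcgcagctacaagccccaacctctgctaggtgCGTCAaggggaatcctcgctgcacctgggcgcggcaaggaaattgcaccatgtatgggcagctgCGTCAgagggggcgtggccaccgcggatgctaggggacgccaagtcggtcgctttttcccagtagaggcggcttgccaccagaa
Junb, chr19:40080876-40081125, plus strand: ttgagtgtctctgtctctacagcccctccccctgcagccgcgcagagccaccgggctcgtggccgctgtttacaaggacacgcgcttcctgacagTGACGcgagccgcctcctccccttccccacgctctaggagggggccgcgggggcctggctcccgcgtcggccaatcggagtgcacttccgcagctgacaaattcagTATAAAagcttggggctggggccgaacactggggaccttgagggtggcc

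Egr1 held 2 CArG boxes, at 105 to 96 and 83 to 74 bases before the start, with a CRE half-site on each side of the pair. Of 33469 RefSeq windows of the same length, 7 (0.0209%) held at least 2 CArG boxes and 1.5% at least 1. Klf6 held 1 CArG box, Fosl1 held 2 CRE half-sites, and Junb held 1 CRE half-site and 1 TATA box. A CRE half-site was in 18.2% of windows, a TATA box in 12.9% and an AP-1 site in 6.34%. These matches describe letters and not occupied sites.

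The KD mutant arrays stood apart from the rest before any member was considered. Over all probe sets they correlated at 0.709 to 0.719 with the other 8 arrays, against 0.992 to 0.996 among those 8, and their medians were 4.94 and 4.95, against 5.31 to 5.35. The 9 smooth muscle markers were mixed on the other 8 arrays: Smtn, Myh11 and Acta2 averaged 10.4, 6.79 and 6.26 (the 97.7, 77.6 and 69.3 percentile of the array), whereas Tagln and Cnn1 averaged 4.98 and 4.39 (the 41.9 and 28.3 percentile). Des averaged 6.09 there (the 66.1 percentile), and Synpo2, Myocd and Lmod1 averaged 4.88, 4.26 and 3.86 (the 39.4, 25.3 and 17.3 percentile). On the KD mutant arrays Tagln averaged 11.3, Acta2 9.38 and Cnn1 7.86, while Smtn was at 8.34 and Myh11 at 6.95. Des averaged 8.44, Synpo2 4.89, Myocd 4.68 and Lmod1 3.82 on the KD mutant arrays. The fibroblast markers were mixed too: Col1a2, Col1a1, Col3a1 and Thy1 averaged 13.6, 10.6, 10.2 and 8.84 on the KD mutant arrays, against 3.88, 6.05, 4.81 and 5.43 on the other 8. Pdgfra, Dcn and Lum averaged 4.25, 3.19 and 2.56 on the KD mutant arrays, against 5.55, 4.50 and 2.91. The epithelial markers Cdh1, Krt19 and Krt18 averaged 5.87, 5.99 and 9.31 on the KD mutant arrays, against 9.71, 9.41 and 11.5. Ocln, Cldn7 and Epcam averaged 4.05, 3.78 and 2.66, against 5.64, 5.07 and 3.78. Krt8 differed less, at 8.10 against 8.53, and Cldn4 was at 3.41 against 3.36. The 8 arrays thus went against their smooth muscle label on Tagln, Cnn1, Synpo2, Myocd and Lmod1, and not on Smtn. Synpo2, Myocd and Lmod1 were low on the KD mutant arrays too. Of the epithelial markers, Krt18, Cdh1, Krt19 and Krt8 were at the 98.9, 96.1, 95.3 and 92.0 percentile on the 8 arrays. Ocln, Cldn7, Epcam and Cldn4 were at the 56.9, 43.9, 15.7 and 8.49 percentile there. The KD mutant arrays differed from the other 8 in cell type markers as well as in construct. The rat Bmpr2 probe sets, which do not check the human construct, averaged 8.51 and 3.85 on the KD mutant arrays, against 7.08 and 5.31 with wild-type BMPR2, so they moved in opposite directions. In bulk RNA, fewer cells of a type and less RNA per cell cannot be told apart.

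Klf4, the zinc finger factor known for smooth muscle dedifferentiation, was the member that rose in the ED mutant against each of the 3 groups set beside it. Its probe set (1387260_at) read log2 11.05 and 11.04 on the ED mutant arrays, against 10.19 and 10.27 with the CD mutant, 10.33 and 10.29 with wild-type BMPR2 and 10.15 and 10.27 with empty vector. Both ED mutant arrays lay above all 6 others outside the KD mutant, which ran from 10.15 to 10.33. Klf4 was higher by 0.74 ± 0.10 on the log2 scale than with wild-type BMPR2 (1.67-fold, SE, adjusted p = 0.0236 in limma). It was higher by 0.84 ± 0.10 than with empty vector (1.78-fold, adjusted p = 0.00364) and by 0.82 ± 0.10 than with the CD mutant (1.76-fold, adjusted p = 0.00479). These 3 comparisons share the ED mutant arrays. The call against wild-type BMPR2 was lost when any of the 4 arrays compared was left out (adjusted p of 0.169 to 0.260), while the difference stayed between 0.72 and 0.76. The call against empty vector was lost without empty vector replicate 1 (0.78, adjusted p = 0.0789) or ED mutant replicate 1 (0.83, adjusted p = 0.0576). The call against the CD mutant was lost without CD mutant replicate 1 (0.78, adjusted p = 0.0864), ED mutant replicate 1 (0.81, adjusted p = 0.0682) or ED mutant replicate 2 (0.82, adjusted p = 0.0721).

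Klf4 did not pass the test among the other groups. The wild-type minus empty vector difference was 0.10 (95% interval -0.12 to 0.32, adjusted p = 0.969) and the CD mutant minus wild-type difference was -0.08 (-0.30 to 0.14, adjusted p = 1.00).

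Myc, the growth-promoting bHLH factor, was lowest in the ED mutant among the 8 arrays and fell relative to the CD mutant. It (1368308_at) read log2 8.23 and 8.22 with the ED mutant, against 8.86 and 8.78 with the CD mutant, 8.59 and 8.52 with wild-type BMPR2 and 8.74 and 8.64 with empty vector. Groups of these 8 arrays did not overlap. The ED minus CD difference was -0.59 ± 0.11 (SE, adjusted p = 0.0482 in limma), a call lost in 8 of 13 alternatives, over which the adjusted p ran from 0.00389 to 0.329. It was lost when any of the 4 arrays was left out, with differences of -0.63 to -0.56. Against empty vector the difference was -0.47 (adjusted p = 0.0969) and against wild-type BMPR2 -0.33 (adjusted p = 0.463), so neither passed.

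Of the cell type marker lists, the epithelial and liver lists had higher means with the ED mutant. No smooth muscle, fibroblast, endothelial or macrophage marker was called by limma in a comparison that holds the ED mutant outside the KD mutant. The mean log2 value of the 8 epithelial markers was 7.31 to 7.36 on the ED mutant arrays, against 6.998 to 7.03 with the CD mutant, 7.06 to 7.11 with wild-type BMPR2 and 7.05 with empty vector. Of the 6 tested, 2 rose against the CD mutant (Krt18 and Krt19), 1 against empty vector (Cdh1) and 0 against wild-type BMPR2, where the list's median difference was 0.43. Of all genes with 1 probe set each, 0.507%, 0.706% and 0.241% were called in these comparisons. The call was lost in 8 of 13 alternatives for Krt18, 5 for Krt19 and 2 for Cdh1. Epcam and Cldn4 stayed under the filter level on all 8 arrays. The mean of the 6 liver markers was 6.01 to 6.05 with the ED mutant, against 5.66 to 5.72 with the CD mutant, 5.73 to 5.77 with wild-type BMPR2 and 5.56 to 5.61 with empty vector. Fgb rose against the CD mutant, a call lost in 4 of 13 alternatives, and against empty vector, a call lost in 0 of 13. The skeletal muscle actin Acta1, the only skeletal muscle marker called against wild-type BMPR2, read 8.39 and 8.38 with the ED mutant, against 7.23 and 6.80 with wild-type BMPR2 (adjusted p = 0.0229, a call lost in 4 of 13 alternatives). Its list moved in no common direction, with a median of -0.04 against wild-type BMPR2. Myh3, an embryonic myosin, was lower by 1.02 than with the CD mutant (adjusted p = 0.00342 in limma), where Acta1 was higher. Myh3 was itself called higher in CD mutant minus empty vector, a call lost in 7 of 13 alternatives. No skeletal muscle marker was called lower in the ED mutant against wild-type BMPR2 or empty vector. The part of these markers in the Klf4 and Myc differences was not tested.

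The AP-1 subunits pointed in different directions on the ED mutant arrays, and none passed the test. Fosl1, a FOS family member without a transactivation domain, read (1368489_at) 6.06 and 6.21 with the ED mutant, against 6.60 and 6.74 with the CD mutant, 6.78 and 6.71 with wild-type BMPR2 and 7.31 and 6.81 with empty vector. The ED mutant arrays were the lowest of the 8 outside the KD mutant, and among these groups the empty vector arrays lay farthest apart (SD 0.356, n = 2). The difference was -0.92 ± 0.19 against empty vector (adjusted p = 0.0648), -0.61 against wild-type BMPR2 (adjusted p = 0.422) and -0.53 against the CD mutant (adjusted p = 0.396). With the filter at the 60th percentile, or with the KD mutant arrays left out, the difference from empty vector passed, at an adjusted p of 0.0454 and 0.0208.

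Fos, the founding partner of AP-1, had its brighter probe set (1375043_at) at 9.07 and 9.47 with the ED mutant, against 9.03 and 9.07 with the CD mutant, 8.91 and 8.87 with wild-type BMPR2 and 8.57 and 8.77 with empty vector. The ED and CD mutant arrays overlapped each other and lay above both controls. The ED minus empty vector difference was 0.61 ± 0.13 (adjusted p = 0.0857) and the ED minus wild-type difference 0.38 (adjusted p = 0.502). The dimmer Fos probe set (1371283_at), at 5.22 to 5.53 on the 8 arrays, gave -0.12 against empty vector, and the pair correlated at -0.583 over those 8 arrays.

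Jun, the main JUN family subunit, was represented by 3 probe sets that ran together (r of 0.798 to 0.906 over 8 arrays). The brightest (1389528_s_at) read 8.61 and 8.50 with the ED mutant, against 7.996 and 8.13 with the CD mutant, 8.16 and 8.05 with wild-type BMPR2 and 8.48 and 8.28 with empty vector. The ED mutant arrays were the highest, with empty vector next. The ED minus wild-type difference was 0.45 ± 0.11 (adjusted p = 0.247), and 0.30 and 0.26 for the other probe sets. Junb, a JUN protein with weaker transactivation, read (1387788_at) 8.19 and 8.11 with the ED mutant, 8.06 and 8.06 with the CD mutant, 8.16 and 7.9997 with wild-type BMPR2 and 8.39 and 8.28 with empty vector, where both arrays were the highest of the 8.

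Egr1, a zinc finger factor with SRF-driven promoter elements, had its highest arrays outside the KD mutant in the CD mutant rather than the ED mutant. It (1368321_at) read 6.48 and 6.32 with the ED mutant, against 6.92 and 6.97 with the CD mutant, 6.55 and 6.74 with wild-type BMPR2 and 6.53 and 6.35 with empty vector. The CD minus empty vector difference was 0.50 ± 0.11 (adjusted p = 0.185), and the ED minus CD difference was -0.55 ± 0.11 (adjusted p = 0.0902). Neither passed.

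The remaining KLF members passed no test in these comparisons. Klf6, a zinc finger factor of the same family, had its brightest probe set (1387060_at) at 8.65 and 8.71 with the ED mutant, 8.24 and 8.20 with the CD mutant, 8.46 and 8.20 with wild-type BMPR2 and 8.48 and 8.63 with empty vector. The ED minus CD difference was 0.47 ± 0.12 (adjusted p = 0.173), and another Klf6 probe set (1395557_at) gave 0.73 (adjusted p = 0.289). Klf2, known as a shear-induced factor of endothelium, varied least over the 8 arrays in its brightest probe set. That probe set (1375248_at) read 9.32 and 9.27 with the ED mutant, 9.36 and 9.25 with the CD mutant, 9.42 and 9.38 with wild-type BMPR2 and 9.32 and 9.32 with empty vector, a range of 0.166 over 8 arrays. Atf3, a stress-induced bZIP repressor (1369268_at), lay between 4.12 and 4.69 on the 8 arrays and was not tested.

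**Figure D1:**
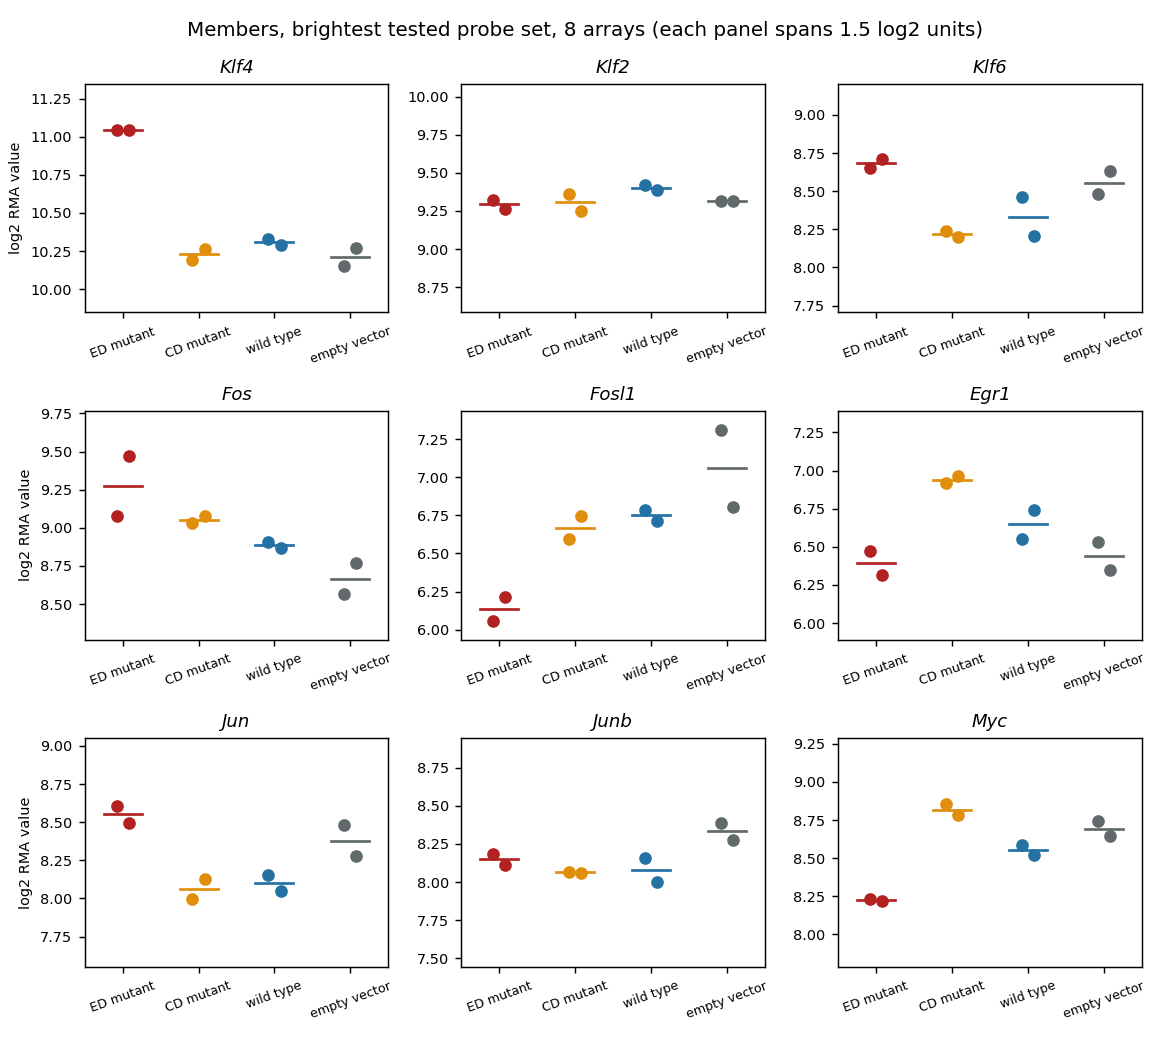
Log2 RMA value of each array (y axis) for the brightest tested probe set of each member, with the 4 groups outside the KD mutant on the x axis; points are arrays and lines are group means. The ED mutant arrays of Klf4 stand at 11.05 and 11.04, above the other groups at 10.15 to 10.33, while those of Myc and Fosl1 are the lowest of the 8 arrays outside the KD mutant.

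Counted over the 17 tested probe sets, calls were few and read against the share of all 22502 tested. In the ED mutant minus wild-type comparison 1 member was called (Klf4, higher) where 0.164% of all probe sets were called, and 9 had an unadjusted p under 0.05, as did 7.65% of all. In ED mutant minus empty vector 1 was called (Klf4) where the share was 0.529%, with 6 under 0.05 unadjusted (11.4% of all). In ED mutant minus CD mutant 2 were called (Klf4 higher, Myc lower) where the share was 0.351%, with 10 under 0.05 unadjusted (9.39% of all). Limma called 0 members in CD mutant minus wild-type (0% of all), where 2 members and 3.48% of all were under 0.05 unadjusted. It called 0 in CD mutant minus empty vector (0.111% of all), where 5 members and 8.74% of all were under 0.05, and 0 in wild-type minus empty vector (0.0133% of all), where 2 members and 6.54% of all were. Probe sets of 1 gene share their target, so these counts are not independent. The members were also chosen with earlier results of these data known, so no excess over all probe sets is read from the counts.

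The median member difference was 0.12 in ED mutant minus wild-type, 0.13 in ED mutant minus empty vector and 0.22 in ED mutant minus CD mutant, against medians of -0.0029, -0.0037 and -0.0076 over all tested probe sets. In all 3 comparisons 10 of 17 probe sets were higher and 7 lower, and the members did not move as a block. The median size of difference, whatever its sign, was 0.26 among members and 0.096 among all probe sets in ED mutant minus wild-type. In CD mutant minus wild-type it was 0.096 and 0.080. Because of how the members were chosen, these medians are descriptions only.

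**Figure D2:**
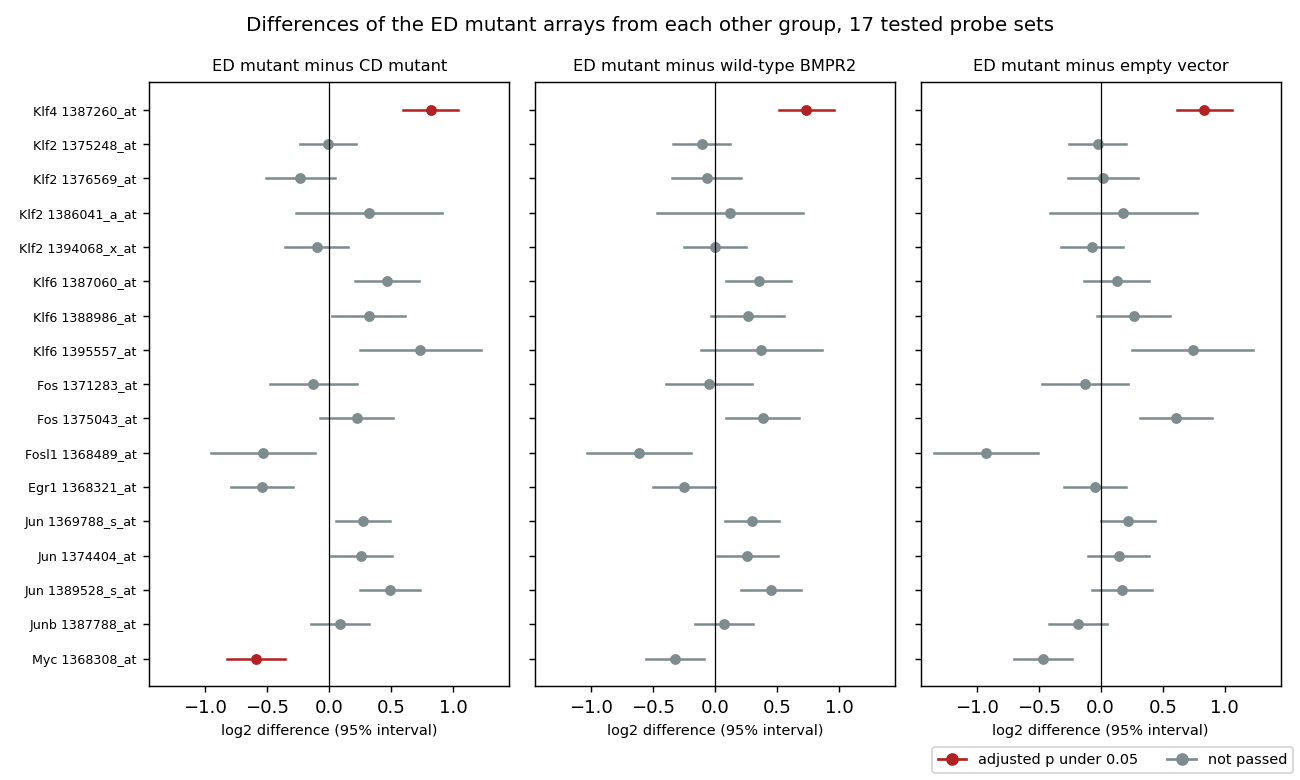
Log2 differences (x axis, with 95% limma intervals) of the 17 tested member probe sets (y axis) in the 3 comparisons that hold the ED mutant. Klf4 lies at 0.74 to 0.84 in every panel, and Myc at -0.59 against the CD mutant.

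Among named genes, those whose probe sets followed Klf4 most closely over the 8 arrays were Cyb5a, a cytochrome b5 (r = 0.996), the prenylated Rab acceptor Rabac1 (r = 0.987) and the actin-associated Palld (r = 0.987). Leaving out the 2 ED mutant arrays gave 0.975, 0.696 and 0.437, so the last 2 rested mostly on those arrays. Myc was followed most closely by Smad6, an inhibitor of BMP receptor signalling (r = 0.993), and by Cand2 and the chromatin remodeller Baz1b (r = 0.974 and 0.973). Without the ED mutant arrays, r was 0.968, 0.964 and 0.915. These are descriptions over 8 arrays, chosen out of 16665 candidate probe sets, and the probe sets share arrays and normalization. Smad6 averaged 4.82 with the ED mutant, 5.13 with the CD mutant, 5.01 with wild-type BMPR2 and 5.10 with empty vector, close to the filter level.

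Other immediate early genes were represented by 35 of 36 listed genes, and 1 of them changed in the ED mutant. Sgk1, a serum- and glucocorticoid-induced kinase, read 11.4 and 11.5 with the ED mutant, against 10.4 and 10.5 with the CD mutant, 10.6 and 10.7 with wild-type BMPR2 and 10.4 and 10.4 with empty vector. Its difference was 0.78 from wild-type BMPR2 (adjusted p = 0.0229), 1.04 from empty vector (adjusted p = 0.00146) and 0.97 from the CD mutant (adjusted p = 0.00253). The call against wild-type BMPR2 was lost when any of the 4 arrays was left out (0.71 to 0.85, adjusted p of 0.169 to 0.238), and the other calls held in 13 of 13 alternatives each. The next by adjusted p against wild-type BMPR2 were the small MAF protein Maff (0.46, adjusted p = 0.236), the matricellular Ccn2 (0.52, adjusted p = 0.248) and Ier5 (0.37, adjusted p = 0.300), and none of these passed. In CD mutant minus empty vector 1 was called, Maff at -0.70 (adjusted p = 0.0465), which was lost when any of the 4 arrays was left out (adjusted p of 0.165 to 0.609). The list's median in ED mutant minus wild-type was 0.09, against 0.0013 over all genes with 1 probe set each. Of those 12040 genes, 0.241% were called in ED mutant minus wild-type, 0.706% in ED mutant minus empty vector, 0.507% in ED mutant minus CD mutant and 0.158% in CD mutant minus empty vector.

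No other KLF family member (11 tested), ERK pathway inhibitor (12 tested), upstream kinase or promoter-bound activator (20 tested) or integrated stress response gene (17 tested) was called by limma in the 6 comparisons without the KD mutant. In ED mutant minus wild-type the members of lowest adjusted p were Klf13 (0.24, adjusted p = 0.605), the ERK phosphatase Dusp1 (0.40, adjusted p = 0.398), the p38 kinase kinase Map2k6 (0.27, adjusted p = 0.476) and the serine synthesis enzyme Phgdh (-0.33, adjusted p = 0.399). Of 21 AP-1 and MYC partners, the call in these comparisons was again Maff. Atf5 had the lowest adjusted p in ED mutant minus wild-type (-0.48, adjusted p = 0.213).

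MYC target genes had 19 of 20 members tested, and 1 fell in the ED mutant relative to the CD mutant. Odc1, the rate-limiting enzyme of polyamine synthesis and a textbook MYC target, read 11.6 and 11.7 with the ED mutant, against 12.3 and 12.2 with the CD mutant, 12.2 and 12.1 with wild-type BMPR2 and 12.1 and 11.9 with empty vector. Its difference was -0.59 from the CD mutant (adjusted p = 0.033) and -0.49 from wild-type BMPR2 (adjusted p = 0.126). The call was lost when any of the 4 arrays was left out (-0.62 to -0.56, adjusted p of 0.156 to 0.300). The list's median in ED mutant minus CD mutant was -0.011, against -0.0039 over all genes with 1 probe set each. It was -0.099 in ED mutant minus wild-type (0.0013 over all genes) and -0.17 in ED mutant minus empty vector (-0.0078 over all genes). In CD mutant minus empty vector it was -0.13 (-0.0076 over all genes), so a lower median was not particular to the ED mutant. No MYC target was called by limma in the other comparisons without the KD mutant.

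**Figure D3:**
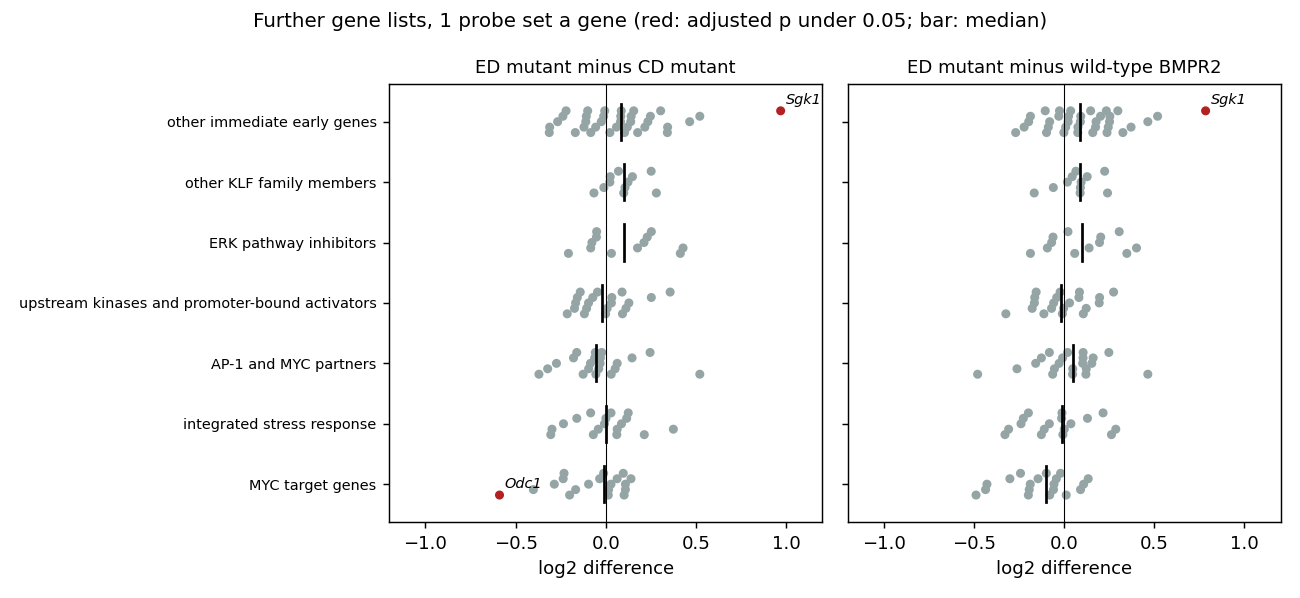
Log2 differences (x axis) of genes in 7 lists (y axis, 1 probe set a gene), for ED mutant minus CD mutant (left) and ED mutant minus wild-type BMPR2 (right); red marks an adjusted p under 0.05 and bars mark the list medians. Sgk1 and Odc1 are called on the left and Sgk1 on the right.

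In KD mutant minus wild-type, 13 of 17 member probe sets were called, 4 higher and 9 lower, where 89.6% of all probe sets were called, so the count says nothing about the members. Of the 17, 4 reached the filter level on some arrays only. The Klf2 probe sets 1376569_at and 1386041_a_at reached it on 3 and 2 arrays, and passed only through the KD mutant arrays. The Klf2 probe set 1394068_x_at and the Fos probe set 1371283_at reached it on the 8 arrays outside the KD mutant. Of the 13 at that level on all arrays, 9 were called, 2 higher and 7 lower. Egr1 read 10.00 and 9.94 with the KD mutant, against 6.55 and 6.74 with wild-type BMPR2, a difference of 3.32 (adjusted p = 8.59e-11). Klf4 read 7.60 and 7.47 with the KD mutant, against 10.33 and 10.29 with wild-type BMPR2 (-2.77, adjusted p = 1.45e-10). Fos read 6.07 and 6.17 with the KD mutant, against 8.91 and 8.87 with wild-type BMPR2 (-2.77, adjusted p = 1.78e-09). These were the reverse of Egr1, with no overlap of the groups. Myc read 6.98 and 6.76 with the KD mutant, against 8.59 and 8.52 with wild-type BMPR2 (-1.68, adjusted p = 2.22e-08). The brightest probe set of Klf2 read 7.78 and 7.97 with the KD mutant, against 9.42 and 9.38 with wild-type BMPR2. That of Jun read 7.48 and 7.54 with the KD mutant, against 8.16 and 8.05 with wild-type BMPR2. All 3 were lower with the KD mutant, with no overlap. For Fosl1, Junb and the brightest Klf6 probe set the groups overlapped. Fosl1 read 6.69 and 7.26 with the KD mutant, against 6.78 and 6.71 with wild-type BMPR2. Junb read 8.09 and 8.26 with the KD mutant, against 8.16 and 7.9997 with wild-type BMPR2. Klf6 read 8.58 and 8.41 with the KD mutant, against 8.46 and 8.20 with wild-type BMPR2. The construct cannot be told apart from the cell type markers that differed between these arrays. The median of all tested probe sets was -0.56 in this comparison, and the members' differences stand relative to it. After quantile normalization, or centring on each array's median, that median was -0.46 or -0.10.

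The further lists were called in both directions in KD mutant minus wild-type, where 88.9% of all genes with 1 probe set each were called, 36.1% higher and 52.8% lower, so nothing is read from their counts. Of other immediate early genes 13 of 35 were higher and 19 lower, and of other KLF family members 2 of 11 were higher and 9 lower. Of ERK pathway inhibitors 6 of 12 were higher and 5 lower, and of upstream kinases and activators 8 of 20 were higher and 10 lower. AP-1 and MYC partners had 5 of 21 higher and 11 lower, integrated stress response genes 5 of 17 and 9, and MYC target genes 10 of 19 and 7. List medians ran from -0.98 (KLF family) to 0.70 (MYC targets), against -0.42 over all genes with 1 probe set each.

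Probe sets of a gene read differently on the KD mutant arrays. For Klf2, the probe set at the filter level on all 10 arrays (1375248_at) gave -1.53 against wild-type BMPR2. Of the other 3 tested, 1376569_at (5.47) and 1386041_a_at (2.80) passed the filter only through the KD mutant arrays. Their directions were thus set by the filter and are given as values. The probe set 1394068_x_at, at that level on the other 8 arrays and at 4.59 and 4.62 on the KD mutant arrays, gave -0.99. It passed the filter only through the arrays where it was higher, as did the Fos probe set 1371283_at. Nothing is read from the direction of these either. For Klf6, 1 (1388986_at) was higher by 2.72 while the brightest gave 0.16 (adjusted p = 0.209). Junb gave 0.09 (adjusted p = 0.415), and the signs of Junb and of the brightest Klf6 probe set turned with the scaling (Junb -0.56 after quantile normalization and 0.49 after centring, Klf6 -0.48 and 0.56). Jun was called at -0.59 for its brightest probe set, but not after centring (-0.19, adjusted p = 0.131). No direction is given for Klf2 or Klf6 as a gene there.

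**Figure D4:**
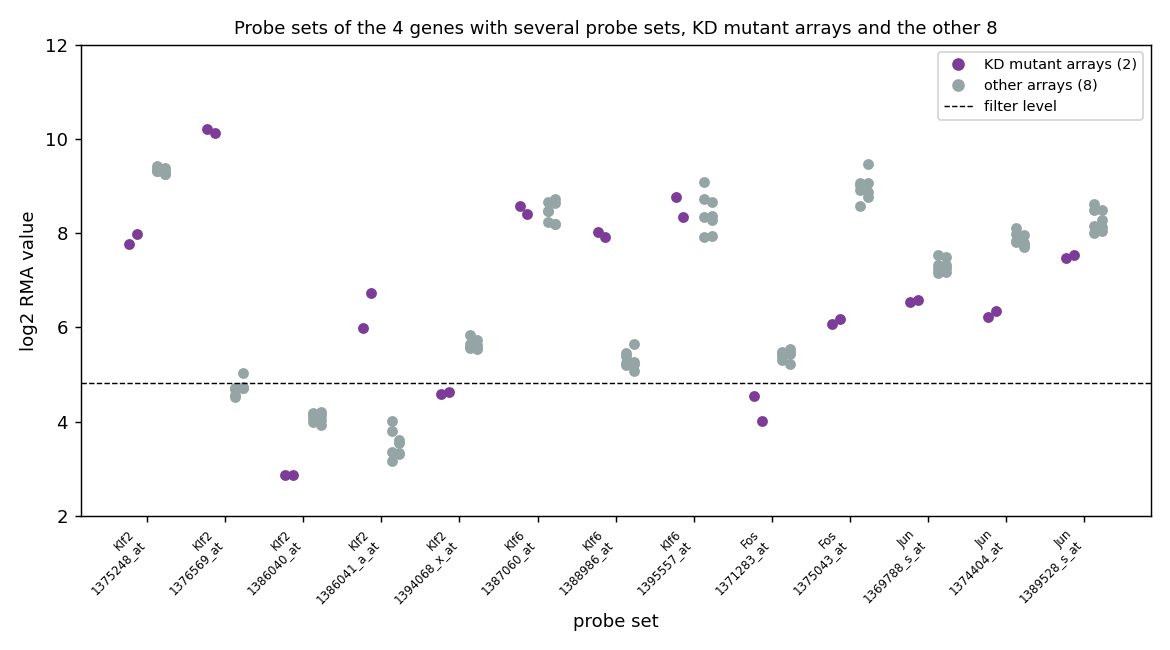
Log2 RMA value (y axis) of every probe set (x axis) of the 4 members with several probe sets, with purple points for the 2 KD mutant arrays, grey points for the other 8 arrays and a dashed line at the filter level. A Klf2 probe set reads 10.21 and 10.13 on the KD mutant arrays, against 4.52 to 5.04 on the other 8, while the brightest on those 8 reads 7.78 and 7.97 on the KD mutant arrays, against 9.25 to 9.42 on the other 8.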

How the data were processed

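Total RNA was hybridised to single-colour Affymetrix rat arrays. The authors deposited log2 probe set values. RMA made them, per the submitters' processing notes, in a version not given in the sources used here. Of 31099 probe sets, 57 controls were left out, and 22502 that reached the 40th percentile (log2 4.82) on at least 2 of 10 arrays were tested. Genes were named from the platform annotation, with symbols updated through Entrez identifiers.

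Limma 3.58.1 in R 4.3.3 fitted 5 group means to all 10 arrays (lmFit, eBayes, 11.4 total degrees of freedom), and p-values were adjusted by Benjamini-Hochberg over all tested probe sets, two-sided; called means under 0.05. SE is moderated. The number of arrays limits the precision. The model was tested on simulated data, in ED mutant minus wild-type. It recovered 22 of 67 planted log2 differences of 0.5, 66 of 67 of 1 and 66 of 66 of 2, with 7 false calls. More large differences were planted than the 37 probe sets called in these data, which loosens the Benjamini-Hochberg cutoff. The simulated errors were also independent between probe sets, so recovery in these data can be lower. A true difference near 0.5 can therefore go uncalled.

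Members and lists were chosen with earlier results of these data known. Values are given for each gene's brightest tested probe set and any called one; from lists, calls and those of lowest adjusted p in ED mutant minus wild-type BMPR2; as most alike, the 3 genes of highest r with each called member. Alternatives covered filters, scaling, variance, the replicate block, left-out arrays and 1 probe set a gene.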

Additional observations from a re-analysis of the deposited data

How the results depend on the processing

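Of 90 alternative counts of called members, 67 stayed within 1.5 times and 23 did not. The 67 include counts of 0 that stayed at 0 in comparisons with 0 members called. They also include KD mutant minus wild-type, where 89.6% of all probe sets were called. The 67 therefore do not measure the stability of the ED mutant counts, many of which moved as given below. Of 392 alternatives for single called probe sets, KD mutant calls included, 318 kept direction and side, 74 lost the call and 0 reversed. ED mutant minus wild-type gave 0 members with only the arrays of the 2 groups and 0 to 0 when each array was left out. ED mutant minus empty vector gave 2 (Fosl1 added) at the 60th percentile filter, after quantile normalization and with 1 probe set a gene, 4 with an eBayes trend, 3 without the KD mutant arrays (Fosl1 and Myc added), and 0 to 1 with an array left out. ED mutant minus CD mutant gave 1 with no filter, after centring, under the replicate block and with only the arrays of the 2 groups, 5 with a trend, and 0 to 1 with an array left out. With 1 probe set a gene, ED mutant minus CD mutant gave 3 (Egr1 added). CD mutant minus empty vector gave 1 (Egr1) with a trend. KD mutant minus wild-type gave 6 with 1 probe set a gene, by construction fewer being tested. The other causes were not tested. No pairing by replicate number was evident (correlations of deviations from group means of -0.029 to 0.143 over 10 pairs of groups), though this cannot show that there was none. Under the replicate block in limma, Myc (adjusted p = 0.0515) and Odc1 (0.0517) against the CD mutant lost their calls. So did Maff (0.0687) in CD mutant minus empty vector. Of the cell type markers, Krt18 (0.0745) against the CD mutant and Myh3 (0.0687), CD mutant minus empty vector, lost theirs. The block changed no other call listed here.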
